A study of Homo sapiens with 6 samples.

Results

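The AP-1 and ATF3 transcription factor genes were examined in Huh7 cells that overexpress the pentose phosphate pathway enzyme transketolase (TKT). The 10 genes were chosen by symbol from the 22077 symbols of the deposited count table, and all 10 were found there: the JUN branch (JUN, JUNB, JUND), the FOS branch (FOS, FOSB, FOSL1, FOSL2) and an ATF branch of ATF3 with the related short factors BATF3 and JDP2. They were chosen with results of this comparison known, so their fold changes are given as a description, and the counts of them that passed a threshold are not a test. RNA-seq covered 3 cultures labelled over-expression and 3 control cultures labelled wt and titled VC, taken here as vector control. Huh7 is a human hepatocellular carcinoma line. The labels write Hu7, and the study's text names Huh7 for this experiment in one place and HCCLM3 in another. According to the study's methods, TKT was introduced on a plasmid carrying GFP and a puromycin resistance gene, and all cells were grown in high-glucose medium with serum.

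AP-1 is a dimer of basic leucine zipper (bZIP) proteins. JUN proteins can pair with each other or with a FOS protein, whereas FOS proteins need a JUN partner, and the dimers bind the element TGACTCA and, more loosely, the cyclic AMP response element TGACGTCA. ATF3 pairs with itself or with JUN proteins and is induced by many stresses, while BATF3 and JDP2 carry a bZIP domain without a strong activation domain and can oppose AP-1 activity. FOS, JUN and ATF3 are immediate-early genes, whose transcripts appear quickly after growth factor or stress signals and decay quickly. In the liver, JUN is needed for hepatocyte survival and proliferation during development and regeneration.

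Library totals lay between 30148788 and 37096156 counts. TKT itself was at 9392 to 9549 CPM (counts scaled to library size with TMM factors) in the TKT-overexpressing cultures and at 469 to 515 CPM in the control cultures. Of 9 hepatocyte markers, 8 passed the expression filter, with ALB at 7914 CPM and AFP at 8334 CPM in control cells, whereas APOB was near 0 with 0.0432 CPM. Among these markers FGB rose by 0.50 and HNF4A fell by 0.15 on the log2 scale (edgeR adjusted p = 8.85e-10 and 0.00720), that of HNF4A 0.0555 with TKT overexpression replicate 1 left out. Of 11 markers of blood, endothelial and stromal cells, 9 were in the table and 3 passed the filter, and their summed FPKM (fragments per kilobase, scaled to library size) was 2.38 to 2.73 on overexpression against 2.48 to 2.90 in control cells. Most of that sum was PECAM1, with a mean of 2.19 FPKM on overexpression and 2.43 FPKM in control cells. Whether a transcript changed in every cell or in a part of the cells cannot be told from these bulk libraries.

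The bases before the start sites are shown first, because members of 1 branch differed from each other in the values below and because JUN is known to act on its own promoter. RefSeq entries on GRCh38.p14 were found for 8 of the 10 genes, with 11 start sites in all, and not for FOSL1 and BATF3. The 250 bases before each start were searched on both strands for the AP-1 element (TGACTCA or TGAGTCA), the cyclic AMP response element (TGACGTCA), the variant of it known from the JUN promoter (TGACATCA or TGATGTCA), the shorter core (TGACG or CGTCA, which overlaps the full element), the TATA box (TATAAA or TTTATA), the CCAAT box (CCAAT or ATTGG) and the serum response factor element, the CArG box. Positions are counted back from the RefSeq start. RefSeq starts differ from the GENCODE 29 gene bounds given further on: the JUN start lies inside the GENCODE gene, as do the last 54 of 120 bases before the FOS start and the last 73 of 143 before the first ATF3 start. Only bases outside the GENCODE gene are printed, and for JUN a stretch of 30 bases around its variant element, each 5′ to 3′ in the direction of transcription. Capitals mark the matches. Sequences are given for JUN, JUNB, JUND, FOS and the first ATF3 start only.
JUN, chr1:58784096-58784125, minus strand: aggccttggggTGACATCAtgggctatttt
JUNB, chr19:12791329-12791485, plus strand: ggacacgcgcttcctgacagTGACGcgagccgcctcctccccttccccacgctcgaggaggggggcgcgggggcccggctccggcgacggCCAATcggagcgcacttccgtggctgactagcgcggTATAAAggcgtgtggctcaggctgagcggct
JUND, chr19:18281623-18281842, minus strand: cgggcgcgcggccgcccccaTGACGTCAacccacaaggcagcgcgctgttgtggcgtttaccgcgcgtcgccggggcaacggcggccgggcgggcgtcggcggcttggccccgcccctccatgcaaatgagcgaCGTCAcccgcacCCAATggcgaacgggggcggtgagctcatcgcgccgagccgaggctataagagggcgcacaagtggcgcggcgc
FOS, chr14:75278708-75278773, plus strand: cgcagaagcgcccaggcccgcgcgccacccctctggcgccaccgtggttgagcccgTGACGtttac
ATF3, chr1:212565264-212565333, plus strand: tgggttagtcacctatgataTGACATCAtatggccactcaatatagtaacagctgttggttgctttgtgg
JUN and the first ATF3 start held the variant TGACATCA, at bases -67 to -60 and -123 to -116 from the start, and it was found before 2.38% of 35116 start sites. JUND held the full element TGACGTCA at bases -200 to -193, found before 1.65% of start sites. The core TGACG or CGTCA was present before a start of JUN, JUNB, JUND, FOS, FOSB, FOSL2 and JDP2, and before 21.2% of all starts. FOS, FOSB and JUNB had a TATA box, at bases -33 to -28, -30 to -25 and -31 to -26, and the second ATF3 start had one far from the start, at -230 to -225, against 10.7% of all starts. Those of FOS, FOSB and the second ATF3 start are not among the bases printed. The AP-1 element itself (4.20% of all starts) and the CArG box (1.16%) were in none of the 11 windows. Bases farther than 250 before a start were not searched, so elements there would not be seen. These matches describe letters in the windows and were not measured as binding sites.

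In control cells the 10 genes spanned a wide range of transcript levels, here given as FPKM so that genes of different length can be compared. The JUN branch was highest. JUND was at 70.7 ± 1.64 FPKM (SD, n = 3 for all values of this kind), JUN at 27.5 ± 0.471 and JUNB at 21.6 ± 1.19. FOSL1, the gene of the FOS-related protein FRA-1, followed with 5.90 ± 0.160 FPKM. JDP2 (2.38 ± 0.133), ATF3 (2.03 ± 0.339) and FOSL2 (1.94 ± 0.184 FPKM), which encodes FRA-2, came next. The ranges of JDP2 and ATF3 overlapped, as did those of ATF3 and FOSL2, so JDP2 and ATF3, and ATF3 and FOSL2, did not differ in level beyond the spread of the cultures. FOS itself was at 1.13 ± 0.163 FPKM, FOSB at 0.784 ± 0.0277 and BATF3 at 0.311 ± 0.105. All other neighbours in this order had ranges that did not overlap. In TKT-overexpressing cells JUND, JUN and JUNB were again the top 3, followed by ATF3 with 6.47 ± 0.112 FPKM, its range overlapping that of FOSL1 (6.14 ± 0.413).

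**Figure D1:**
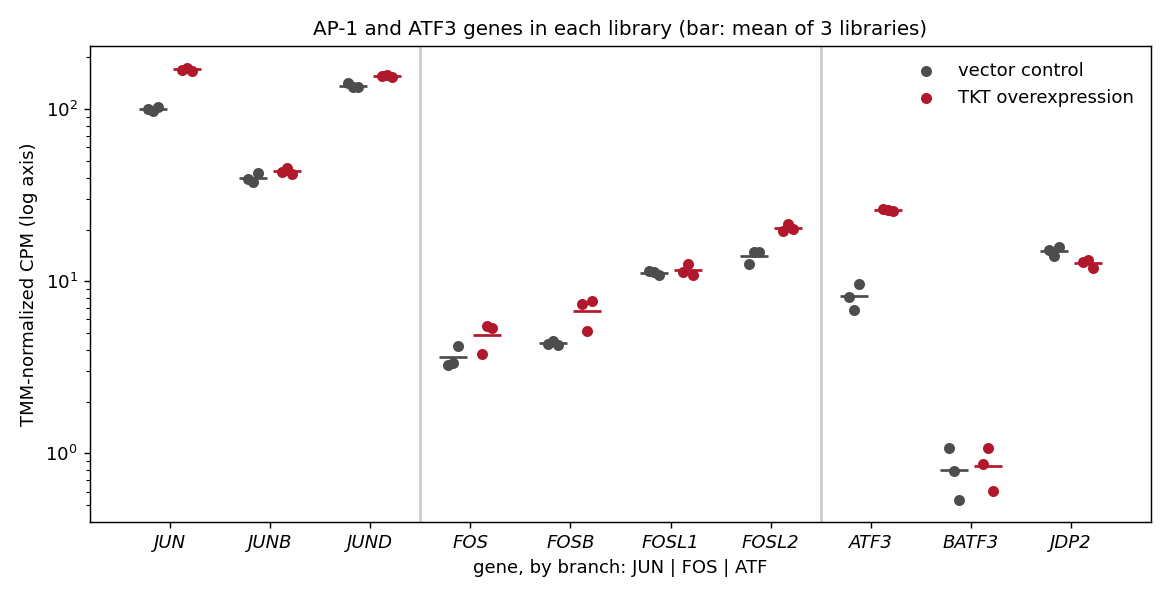
TMM-normalized CPM on a log axis for the 10 genes, grouped by branch, with 1 point per library (gray, vector control; red, TKT overexpression) and a bar at the mean of 3. ATF3 moves from between 6.81 and 9.65 to between 25.5 and 26.4 CPM and JUN from about 100.2 to 170.7 CPM, while the points of JUNB, FOS, FOSL1 and BATF3 overlap between conditions.

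Over the 10 genes, all of which passed the expression filter, the median log2 fold change on TKT overexpression was 0.31, against 0.00 over all 14162 tested genes. 9 of the 10 values were above 0, as were 50.2% of all tested genes. In edgeR's quasi-likelihood test over all genes, 5 of the 10 had an adjusted p-value under 0.05 with higher values, JUN, JUND, FOSB, FOSL2 and ATF3, and 0 with lower values, where 5.69% of all tested genes were higher and 4.94% lower. ATF3 alone was also past an absolute log2 fold change of 1, where 0.727% of all tested genes were called, 0.699% as higher. The same 5 genes did not overlap between conditions with higher values (14.1% of all tested genes), and JDP2 did not overlap with lower values (13.9%). Since the genes were chosen with this comparison known, nothing is read from these counts.

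Within the JUN branch, JUN stood apart from JUNB and JUND. JUN encodes the c-Jun subunit. Its single exon spans bases 58780788 to 58784327 of chromosome 1, minus strand (GRCh38, annotated by GENCODE 29). It was at 169.7, 174.6 and 167.8 CPM in TKT-overexpressing replicates 1 to 3 and at 100.8, 97.5 and 102.4 CPM in control replicates 1 to 3. Each TKT culture was above each control culture, and within a condition the cultures differed little, with a coefficient of variation of 2.06% and 2.52%. The log2 fold change of JUN was 0.77 (standard error 0.04), a 1.70-fold difference.

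JUND, which encodes the subunit that is commonly present in unstimulated cells, had 155.1, 157.1 and 154.6 CPM on overexpression and 141.1, 135.4 and 135.0 CPM in control cells. The conditions did not overlap, but the difference was small, with a log2 fold change of 0.18 (standard error 0.04). JUNB, which encodes a subunit that activates many AP-1 sites less strongly than c-Jun, was at 42.0 to 45.6 CPM against 37.6 to 42.4 CPM. These ranges overlapped, and the log2 fold change was 0.13 (standard error 0.06). JUNB (chromosome 19, 12791496 to 12793315) overlaps HOOK2 on the opposite strand, and the strand setting of the counting is not given in the sources used here. HOOK2 was at 15.1 CPM on overexpression and 14.2 CPM in control cells. FOSL2 overlaps FLJ31356 on the opposite strand and AC104695.3 on the same strand, and JDP2 overlaps AF111167.2 on the opposite strand. These genes were not in the count table under those names. JUNB and JUND (chromosome 19, 18279760 to 18281622) are genes of 1 exon like JUN.

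The summed FPKM of the JUN branch was 151 ± 1.04 on overexpression and 120 ± 1.61 in control cells. JUN took 31.1% ± 0.101 of that sum on overexpression and 22.9% ± 0.294 in control cells, and JUND took 53.2% ± 0.482 against 59.0% ± 1.20. The ratio of JUN to JUND in FPKM was 0.577 to 0.592 against 0.380 to 0.404. JUND remained the most abundant transcript of the branch in each of the 6 libraries, with a smaller lead.

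**Figure D2:**
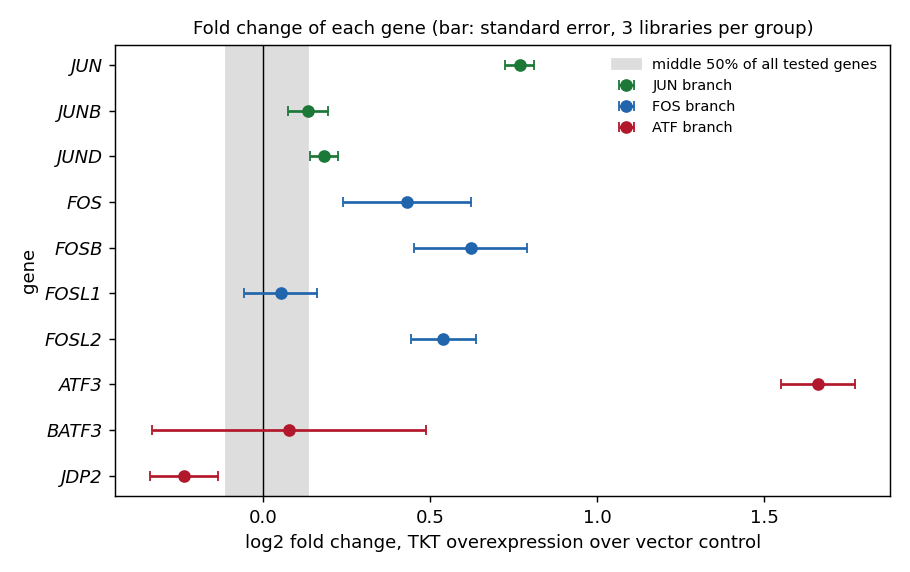
Log2 fold change of TKT overexpression over vector control for each gene, colored by branch, with the standard error from edgeR as bars and the middle 50% of all tested genes shaded. ATF3 lies at 1.66 and JUN at 0.77, JUNB and FOSL1 lie at 0.13 and 0.05, and JDP2 is the only gene below 0, at -0.23.

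In the FOS branch, FOSB and FOSL2 differed between conditions without overlap, whereas FOS and FOSL1 overlapped. FOSL2, which encodes a FOS-related subunit without a strong activation domain (chromosome 2, 28392448 to 28417312), was at 19.6, 21.4 and 20.1 CPM on overexpression and at 12.5, 14.7 and 14.7 CPM in control cells. The conditions did not overlap, and the log2 fold change was 0.54 (standard error 0.10). FOSL1 (chromosome 11, 65892049 to 65900573) was at 10.9 to 12.6 CPM against 10.9 to 11.4 CPM. Its log2 fold change was 0.05 (standard error 0.11), with a 95% interval of 0.887 to 1.21 for the fold, and -0.01 with TKT overexpression replicate 2 left out.

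FOS and FOSB, which encode the classic immediate-early partners of c-Jun, were the least abundant of the branch. FOSB had 7.37, 5.12 and 7.69 CPM in TKT replicates 1 to 3 and 4.33, 4.51 and 4.29 CPM in control replicates 1 to 3. The lowest TKT culture, replicate 2, was closer to the control cultures than to the other TKT cultures. The log2 fold change of FOSB was 0.62 (standard error 0.17) and ranged from 0.52 to 0.78 with each library left out, highest without TKT overexpression replicate 2. On the log2(FPKM + 1) scale it was 0.30. FOSB (chromosome 19, 45467995 to 45475179) overlaps ERCC1 on the opposite strand, and ERCC1 was at 27.2 CPM against 28.1 CPM.

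FOS (chromosome 14, 75278774 to 75282230) was at 3.78, 5.48 and 5.38 CPM on overexpression and at 3.25, 3.36 and 4.23 CPM in control cells. TKT replicate 1 lay below control replicate 3, so the conditions overlapped. The log2 fold change was 0.43 (standard error 0.19), with a 95% interval of 1.02 to 1.78 for the fold before any adjustment for the number of genes. FOS had 102 to 177 counts and FOSB 136 to 273 counts per library, and counting error alone gives FOS a coefficient of variation of 7.86% on overexpression, while the cultures varied by 19.6%. For FOSB these values were 6.62% and 20.8%.

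The summed FPKM of the FOS branch was 11.7 ± 0.468 on overexpression and 9.76 ± 0.219 in control cells. FOSL1 made up 52.4% ± 2.60 of it against 60.5% ± 2.44, and FOSL2 24.2% ± 0.0896 against 19.9% ± 1.46. Against all 10 genes, the FOS branch held 6.82% ± 0.217 of the summed FPKM on overexpression and 7.27% ± 0.247 in control cells.

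The ATF branch held both ends of the range. ATF3, a stress-induced factor that pairs with JUN proteins, lies on chromosome 1 from 212565334 to 212620777 on the plus strand. It had 980, 796 and 839 counts in TKT replicates 1 to 3, or 26.4, 25.8 and 25.5 CPM. The control replicates had 254, 207 and 324 counts, or 8.08, 6.81 and 9.65 CPM. The lowest TKT culture was well above the highest control culture. The log2 fold change was 1.66 (standard error 0.11), a 3.16-fold difference with a 95% interval of 2.70 to 3.71, and 71 of the 14162 tested genes, ATF3 included, had a value at least as high. The control cultures varied more than the TKT cultures, with a coefficient of variation of 17.4% against 1.84%. Counting error alone gives 6.18% and 3.39%, so the TKT value was below it, and no difference in spread is read from 3 cultures each. On the smaller log2(FPKM + 1) scale the difference was 1.31. The counts do not separate the start sites of ATF3.

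JDP2, which encodes a JUN dimerization protein, was at 13.0, 13.3 and 11.9 CPM on overexpression and at 15.1, 13.96 and 15.9 CPM in control cells. All 3 TKT cultures were below all 3 control cultures, by a log2 fold change of -0.23 (standard error 0.10), a fold of 0.850. BATF3 had 18 to 34 counts per library. Its log2 fold change was 0.08 (standard error 0.41), a 95% interval of 0.586 to 1.90 for the fold, so a change of BATF3 was not detectable in these libraries. Its cultures varied by 27.3% and 34.0%, where counting error gives 18.8% and 19.9%. It was -0.12 with TKT overexpression replicate 2 left out and -0.15 with vector control replicate 3 left out.

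ATF3 took 73.3% ± 1.52 of the summed FPKM of the ATF branch on overexpression and 42.9% ± 3.50 in control cells, and JDP2 took 23.0% ± 0.588 against 50.5% ± 1.85. In FPKM, JDP2 was at 2.03 ± 0.0848 against 2.38 ± 0.133, while ATF3 was at 6.47 against 2.03. A lower share, here and for JUND and FOSL1 above, need not be a lower transcript level, since other genes of the sum rose. The ratio of ATF3 to JUN in FPKM was 0.138 ± 0.00366 against 0.0738 ± 0.0111. JUN remained above ATF3 in FPKM in each of the 6 libraries.

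**Figure D3:**
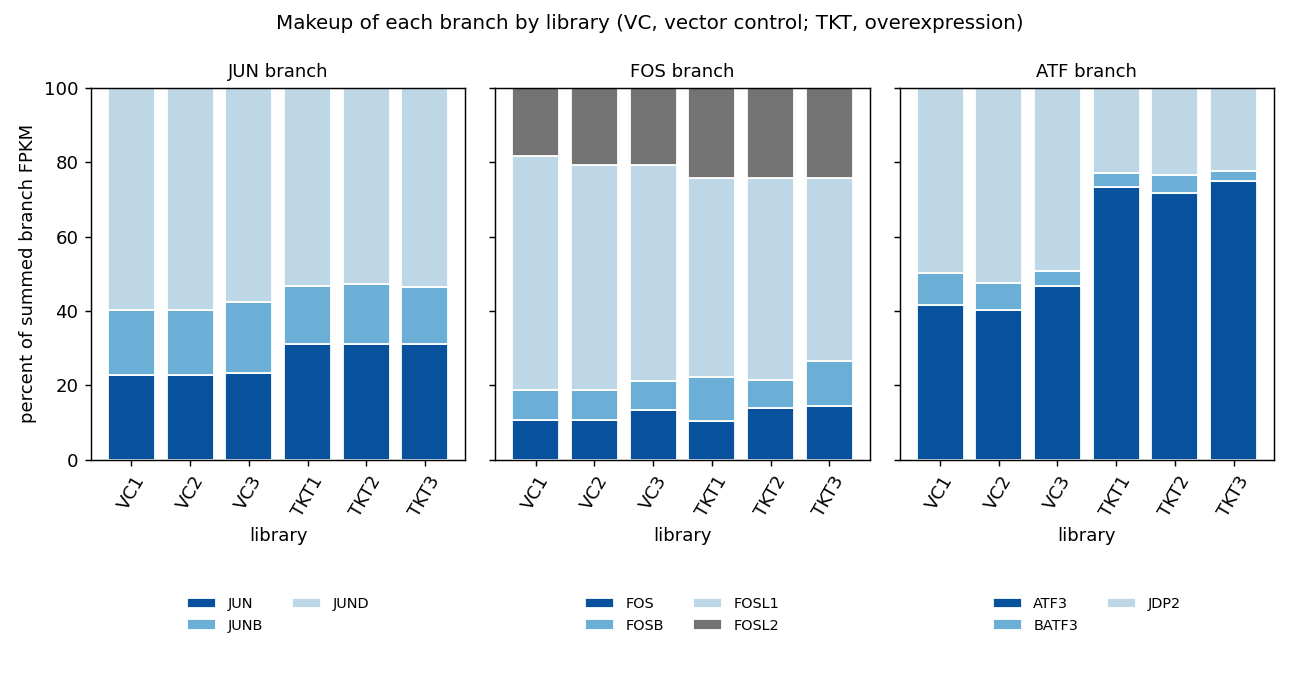
Stacked bars give the percent of the summed FPKM of each branch held by each gene in each of the 6 libraries. ATF3 holds 71.8% to 74.8% of the ATF branch on overexpression against 40.2% to 46.8% in control cells, JUN 31.0% to 31.2% of the JUN branch against 22.7% to 23.3%, and the FOS branch is led by FOSL1 throughout.

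Members lie near each other in 2 places of the genome. ATF3 and BATF3 lie 65.6 kb apart on chromosome 1, with log2 fold changes of 1.66 and 0.08. FOS and JDP2 lie 145.5 kb apart on chromosome 14, with log2 fold changes of 0.43 and -0.23. The 3 genes of 1 exon, JUN, JUNB and JUND, ranged from 0.13 to 0.77, and the other 7, whose longest coding transcripts have 3 or 4 exons, ranged from -0.23 to 1.66.

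Genes with the pattern most like that of JUN, FOS and ATF3 over the 6 libraries were sought among 11277 tested genes whose mean log2 CPM was 1 or more, by the distance between centered log2 CPM values. CXCL1, a chemokine gene, was closest to JUN (distance 0.0817), followed by ANXA3 (0.1005) and THBS1 (0.127), the gene of thrombospondin. Their log2 fold changes were 0.70, 0.75 and 0.69. Near ATF3 were F2RL2 (0.373) and HSPB8 (0.403), a small heat shock protein gene, with log2 fold changes of 1.49 and 1.51. Closest to FOS were the coagulation factor gene F11 (0.137), SYPL2 (0.239) and LINC00649 (0.247), with log2 fold changes of 0.47, 0.32 and 0.44. The FOS neighbors did not pass an adjusted p-value of 0.05, and the distance over 6 libraries of 2 conditions is a description.

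Other genes around AP-1 were taken from lists written by role, with earlier results of these data known. The test of edgeR applies to each gene over all 14162 tested genes, of which 5.69% rose and 4.94% fell. The counts per list are a description and not independent evidence. Among other bZIP genes whose products can pair with or stand beside these factors, 25 of 28 were tested, 6 rose and 2 fell, and the median log2 fold change was 0.11. CREB5, which belongs with ATF2 and ATF7 to a family of JUN partners, rose from 5.23 ± 0.769 to 12.2 ± 0.414 CPM (log2 fold change 1.22, standard error 0.13, edgeR adjusted p = 1.43e-06). ATF2 and ATF7 had log2 fold changes of 0.03 and -0.13 and did not pass. MAFK and MAFF, small MAF proteins without an activation domain, rose by 0.70 and 0.51 on the log2 scale (edgeR adjusted p = 3.22e-07 and 3.99e-05), and CEBPD, a C/EBP factor induced in the acute-phase response, by 0.54 (edgeR adjusted p = 1.43e-06). The 2 genes that fell were CEBPA, a factor of hepatocyte differentiation (-0.19), and NFE2L1 (-0.13), with edgeR adjusted p of 0.00828 and 0.0237. With vector control replicate 1 left out these were 0.0784 and 0.135, and that of NFE2L1 was also 0.0850, 0.0667 and 0.0590 with TKT overexpression replicate 1, 2 or 3 left out. ATF4, the main factor of the integrated stress response and an inducer of ATF3, had a log2 fold change of 0.08 and did not pass (edgeR adjusted p = 0.188).

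Kinases and promoter factors that lie upstream of JUN and FOS were called about as often as all tested genes, of which 10.6% passed in either direction. Of 34 listed genes 32 were in the table and 30 were tested, with 1 higher, 3 lower (13.3% in all) and a median log2 fold change of -0.04. MAP3K1, a kinase at the top of the JNK cascade, rose by 0.33 (edgeR adjusted p = 0.0101), but its adjusted p was 0.0651 with TKT overexpression replicate 3 left out and 0.0587 with vector control replicate 1 left out. MAP2K6, an activator of p38, fell by 0.37 (edgeR adjusted p = 0.00179, but 0.0901 and 0.0931 in the limma fits on FPKM). The falls of MAPK12, a p38 kinase, and RPS6KA4, the kinase MSK2, were -0.18 and -0.22 (edgeR adjusted p = 0.0290 and 0.0391). With each library left out in turn, the adjusted p of MAPK12 lay between 0.00961 and 0.132 and was under 0.05 only when vector control replicate 2 was the one left out. That of RPS6KA4 lay between 0.0120 and 0.230 and was under 0.05 only when TKT overexpression replicate 2 or vector control replicate 2 was left out. The JNK genes MAPK8 and MAPK9 had log2 fold changes of -0.04 and -0.14, and SRF and ELK1, which bind the serum response element, 0.04 and -0.09, none past an adjusted p-value of 0.05. These are transcript levels and say nothing of phosphorylation.

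Among 20 genes of AU-rich mRNA decay and of JUN and FOS protein turnover, 19 were tested, 1 rose and 1 fell (10.5%, against 10.6% of all tested genes), and the median was -0.02. ZFP36L1, an mRNA decay factor, rose by 0.19 (edgeR adjusted p = 0.0197), but its adjusted p was 0.0702 with TKT overexpression replicate 1 left out and 0.114 with vector control replicate 3 left out. HNRNPD, the decay factor AUF1, fell by 0.13 (edgeR adjusted p = 0.0227). With each library left out its adjusted p lay between 0.0187 and 0.122, under 0.05 only when vector control replicate 2 or 3 was left out. ZFP36, which encodes tristetraprolin, and FBXW7, a ubiquitin ligase subunit for c-Jun, had 0.07 and 0.22 and did not pass.

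Of 36 genes listed as textbook targets of AP-1, 28 were in the table and 23 were tested. 13 rose and 0 fell, against 5.69% and 4.94% of all tested genes, with a median log2 fold change of 0.38. DUSP1, a MAP kinase phosphatase, rose from 36.7 ± 1.17 to 88.1 ± 2.90 CPM (log2 fold change 1.26, standard error 0.05, edgeR adjusted p = 4.09e-13), and CXCL8, the gene of interleukin 8, from 57.3 ± 1.82 to 127.6 ± 6.10 CPM (1.15, standard error 0.05, edgeR adjusted p = 7.25e-13). The EGF receptor ligands HBEGF and AREG rose by 1.22 (standard error 0.20, edgeR adjusted p = 0.000259) and 1.16 (standard error 0.15, edgeR adjusted p = 1.37e-05). Of the 23 tested targets, 20 had a log2 fold change above 0. Those that did not pass ran from -0.49 for PLAUR to 1.83 for EREG, both at a low level. They included VEGFA (0.02), CD44 (0.07) and PLAU (-0.03). This list was written with the rise of DUSP1, CXCL8, AREG and HBEGF known from these libraries, so its count is not independent evidence. The listed genes also respond to other factors, and no set test was run.

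Genes that induce ATF3 under stress or act with it went both ways. Of 17 genes 16 were tested, 5 rose and 4 fell, against 5.69% and 4.94% of all tested genes, and the median was -0.02. PPP1R15A, which encodes the GADD34 phosphatase subunit, rose from 60.3 ± 3.27 to 136 ± 4.14 CPM (log2 fold change 1.17, edgeR adjusted p = 6.99e-13), and the growth arrest genes GADD45A and GADD45B rose by 0.85 (edgeR adjusted p = 4.32e-08) and 0.74 (edgeR adjusted p = 9.63e-07). CDKN1A, which encodes the cell cycle inhibitor p21, fell by 0.54 (edgeR adjusted p = 0.00265), as did CHAC1, DDIT4 and MDM2 (-0.52, -0.44 and -0.24, edgeR adjusted p = 0.00114, 0.000132 and 0.0165). For MDM2 the adjusted p was 0.0532 with TKT overexpression replicate 1 left out and 0.114 with replicate 2 left out. The other 2 that rose were EIF2AK3, the stress kinase PERK (0.43, edgeR adjusted p = 0.00255), and DDIT3, the factor CHOP (0.38, edgeR adjusted p = 0.0417). EIF2AK3 did not pass in either limma fit on FPKM. DDIT3 was above 0.05 with any one of the 6 libraries left out, with an adjusted p between 0.0682 and 0.171, and 4 genes of the list then rose. Of 9 heat shock genes, a sign of stress in culture, 7 were tested, 3 rose and 0 fell, against 5.69% and 4.94% of all tested genes, with a median of 0.07 and a summed FPKM of 1393 to 1405 on overexpression against 1387 to 1400 in control cells. HSPA8 and HSP90AA1 were the largest parts of that sum, with 642 and 445 FPKM in control cells. The inducible genes HSPA1A and HSPA1B were not tested, being near 0 with 0.0326 and 0.0311 CPM in control cells. How reads shared by similar genes were counted is not given, so these values are not read as absence of the transcripts. HSPA6, an inducible HSP70 gene at a low level, rose by 1.09 (standard error 0.28, edgeR adjusted p = 0.0166, but 0.0728 and 0.0574 with TKT overexpression replicate 1 or vector control replicate 1 left out), and HSPB1 and BAG3 by 0.21 and 0.20 (edgeR adjusted p = 0.00156 and 0.0246). For BAG3 the adjusted p was 0.214, 0.0999 and 0.0638 when TKT overexpression replicate 1, vector control replicate 1 or vector control replicate 3 was left out, while HSPA8, HSP90AA1 and DNAJB1 had -0.03, -0.07 and -0.06 and did not pass. The part of these heat shock genes in the ATF3 and JUN values was not tested.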

How the data were processed

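RNA-seq of 3 TKT-overexpressing cultures and 3 control cultures, taken as vector control, was used. Whether the wt label means cells without the plasmid is not stated. If it does, effects of the plasmid and its markers cannot be told apart from those of TKT. Per the labels, the authors trimmed reads with fastp 0.22.0 and aligned them with HISAT2 2.1.0 to hg38. According to the Methods, they counted genes with featureCounts, whose annotation, strand and multi-mapping settings are not given in the sources used here. The authors deposited raw counts per gene symbol and FPKM values. No per-sample column was left unused. In R 4.3.3, counts were filtered with filterByExpr (minimum count 10), scaled by TMM and tested in edgeR 4.0.16 (robust quasi-likelihood test, Benjamini-Hochberg adjustment, threshold 0.05), which left 14162 genes. Standard errors come from the same fit. Nothing in the labels says how the cultures were made. The p-values set the difference between conditions against the spread among these cultures, and whether that spread covers separate transfections is not known. Their precision rests on 3 libraries per condition with at least 30148788 counts each. Alternatives were DESeq2 1.42.0, limma 3.58.1 on log2(FPKM + 1) and log2(FPKM + 0.1), other scalings and filters, the replicate number as a block, and each library left out. Scripts were tested on simulated counts.

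The members and lists were chosen with earlier results of these data known. Named genes are the 10 members, TKT, up to 4 genes with the largest change per list (adjusted p-value under 0.05, mean log2 CPM 1 or more), and the 3 genes nearest in pattern to JUN, FOS and ATF3. Some of these genes are not reported here. Further list genes, such as HSPA6 and CEBPA, markers, HOOK2 and ERCC1 were named for their role after their values were seen. Coordinates are from GENCODE 29, of the same build, GRCh38.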

Additional observations from a re-analysis of the deposited data

How the results depend on the processing

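The median over the 10 genes lay between 0.26 and 0.37 with each library left out, and was 0.21 on log2(FPKM + 1), a scale that shrinks the change of low genes. Replicate numbers did not pair the cultures (correlations of same-numbered deviations between -0.03 and 0.02, and 0 of 3 TKT cultures correlated best with its own number).

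At both thresholds 103 genes were called in edgeR with TMM, 63 by DESeq2, 160 without a filter, 67 with the replicate block, and 15 and 68 by limma with 1 and 0.1 added to FPKM (74 to 128 with a library left out). By adjusted p alone 1505 were called, 697 with the replicate block, 752 and 790 by limma (791 to 1586 with a library left out, the lowest when TKT overexpression replicate 1 was left out, then 881 for vector control replicate 1). Of the 10 genes, chosen with this comparison known, 5 were past the threshold, 3 with the replicate block (without JUND and FOSB) and 4 (without FOSB) in both limma fits and with TKT overexpression replicate 1 or 3 or vector control replicate 1 or 3 left out. These counts describe the fits and do not test the genes. Of list genes, the block left 0 lower bZIP partners, 1 lower upstream gene, 0 higher and 0 lower decay genes and 1 higher heat shock gene. Limma on log2(FPKM + 1) and log2(FPKM + 0.1) left 1 and 0 lower bZIP partners, and each left 0 upstream and 0 decay genes in either direction. Without a filter 2 upstream genes were higher, and DESeq2 called 1 heat shock gene lower. With a library left out, the counts were 0 to 2 lower bZIP partners, 0 to 2 higher and 1 to 3 lower upstream genes, 0 to 1 higher and 0 to 1 lower decay genes, and 1 to 3 higher heat shock genes. Among AP-1 targets 13 genes were higher in all but the limma fits, with 12 each, where EGFR did not pass, and 0 were lower. Of the ATF3 stress list 4 rose in place of 5 with DESeq2, without a filter, with the block, in both limma fits and with each library left out, and 3 to 5 fell. Upper quartile scaling called 892 genes higher and 577 lower, against 806 and 699 with TMM. FOS, FOSB and BATF3 had few counts, and their cultures varied more than counting error gives, except FOSB in control cells.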
